A study of Mus musculus with 10 samples.

Results

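The C/EBP family was described across the 4 genotypes of the study. The members were the 6 genes Cebpa, Cebpb, Cebpd, Cebpe, Cebpg and Cebpz, and a gene was taken as measured where a probe set named that gene alone. By this rule 5 of the 6 were measured, each by 1 probe set, among 19938 genes in all, and Cebpz was not analysed here. RNA came from cDC1s of the spleen, the conventional dendritic cells that cross-present antigen to CD8 T cells. WT mice gave 3 arrays, Zeb2 KO mice 3, Nfil3 Zeb2 DKO mice 2 and Zeb2 Id2 DKO mice 2, so every mutant group lacks Zeb2 and the double mutants also lack Nfil3 or Id2. The strain, the age and sex of the mice, the way each allele was deleted and any pooling are not stated in the labels. Nor do the labels say whether replicates came from separate animals, and the p-values then measure only the spread between these samples.

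C/EBP proteins are basic leucine zipper factors that bind DNA as dimers and drive myeloid and especially granulocytic differentiation. Nfil3 is another basic leucine zipper factor, which can occupy sites that C/EBP factors also bind and represses where C/EBP factors activate. In dendritic cell progenitors Nfil3 lowers Zeb2, the C/EBP factors act the other way on Zeb2, and Zeb2 in turn holds down Id2, which cDC1s need. The groups therefore ask what the C/EBP genes themselves do once Zeb2 is gone, and once Nfil3 or Id2 is lost with it.

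Sites of the C/EBP type were searched in the RefSeq promoter windows (GRCm38.p6, 250 bases before to 50 after each start) of the C/EBP genes, the Nfil3, Zeb2 and Id2 genes and the granule genes described below. The letters searched on both strands were TTGCGCAA, the C/EBP palindrome, and its looser forms TTGCNNAA and TTGCGCNA, each of which also takes in the palindrome. The palindrome stands in 0.183% of 32851 windows, TTGCNNAA in 10.8% and TTGCGCNA in 0.816%. The table matched 3 of the 6 C/EBP genes (Cebpa, Cebpb and Cebpg), of which only Cebpa held a match. The matches printed here run 5′ to 3′ on the gene's strand, with the matched letters in capitals. They were chosen for Cebpa as the C/EBP gene with the largest difference, for Zeb2 as the deleted gene, and for the 3 secondary granule genes that changed.
Cebpa: gtcagtgggcgTTGCGCCAcgatctctctc
Zeb2: gggaaatgagaTTGCAAAAgaaatatagaa
Ngp: gtcctggtttaTTGCCCAAacctccttgcc
Ltf: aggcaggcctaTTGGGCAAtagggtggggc
Lcn2: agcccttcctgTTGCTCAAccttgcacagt
The Cebpa match spans positions -185 to -178 from the start, and the Zeb2 match lies in 1 of the gene's 4 windows. Coordinates are given for the 30 printed bases, of which the match is a part. They are chr7:35119097-35119126 (plus strand) for Cebpa and chr2:45117645-45117674 (minus strand) for Zeb2. The printed bases lie at chr9:110419659-110419688 (plus) for Ngp, chr9:111019206-111019235 (plus) for Ltf and chr2:32387937-32387966 (minus) for Lcn2. The matches in these 3 are TTGCNNAA or its reverse complement. TTGCNNAA was found in 5 of the 9 secondary and 1 of the 5 primary granule genes with a window. Matches not printed include those of Fcnb and Mmp8, secondary granule genes that were not called, and of the called primary granule genes with a window only Ms4a3 held one. The NFIL3-type letters TTACGTAA and TTANGTAA, found in 0.119% and 2.32% of all windows, were in none of the windows of these genes. A match describes the letters only; no binding was measured.

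Values are log2 of the intensities that the authors normalized with RMA, and a level on this scale is compared only with the same gene on other arrays. No detection call was used, so a low value cannot be told from background. The summed intensity of 11 cDC1 markers lay between 34358 and 39368 on every array, and 1 marker, Cadm1, was called lower in the Zeb2 Id2 DKO arrays. No array was of another cell type, so this sum compares the arrays with each other and does not check the cDC1 label. Zeb2 KO replicate 3 stood apart, with correlations of 0.986 and 0.987 with its group, while all other pairs within a group reached 0.993 to 0.997. Nfil3 read 6.20 and 7.09 in Nfil3 Zeb2 DKO against 9.98, 10.77 and 10.68 in WT, and Id2 read 5.01 and 4.98 in Zeb2 Id2 DKO against 10.15, 10.32 and 10.43, each in keeping with its label. The Zeb2 probe set, at 6.08 in WT, differed by -0.16 (adjusted p = 0.929), 0.27 (1.0) and 0.72 (0.184, limma) in the single mutant and the mutants of Nfil3 and of Id2. Its place relative to the deleted part is not stated, so it checks no deletion. All comparisons with WT share the same 3 WT arrays.

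Of the C/EBP genes, Cebpa and Cebpg rose in the Zeb2 Id2 DKO arrays. Both were called against WT, and these were the 2 calls among the 30 comparisons of 5 genes over 6 pairs of genotypes. A gene was called at an adjusted p under 0.05 from limma over all genes, and in that pair 1.43% of all genes were called, 0.878% higher. In the 5 other pairs 0 of 5 members were called, and the share of all genes called was 0.0201% for Zeb2 KO against WT, 0.00502% for Nfil3 Zeb2 DKO against WT and also against Zeb2 KO, 0.497% for Zeb2 Id2 DKO against Zeb2 KO and 0.792% against Nfil3 Zeb2 DKO. At an unadjusted p under 0.05, limma gave 2 members for Zeb2 KO against WT (7.39% of all genes), 2 for Zeb2 Id2 DKO against WT (10.2%), 0 for Nfil3 Zeb2 DKO against WT (4.16%), 1 for Nfil3 Zeb2 DKO against Zeb2 KO (8.5%), 1 for Zeb2 Id2 DKO against Zeb2 KO (7.35%) and 2 for Zeb2 Id2 DKO against Nfil3 Zeb2 DKO (11.5%). In bulk RNA, fewer cells of a type and less RNA per cell cannot be told apart.

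**Figure D1:**
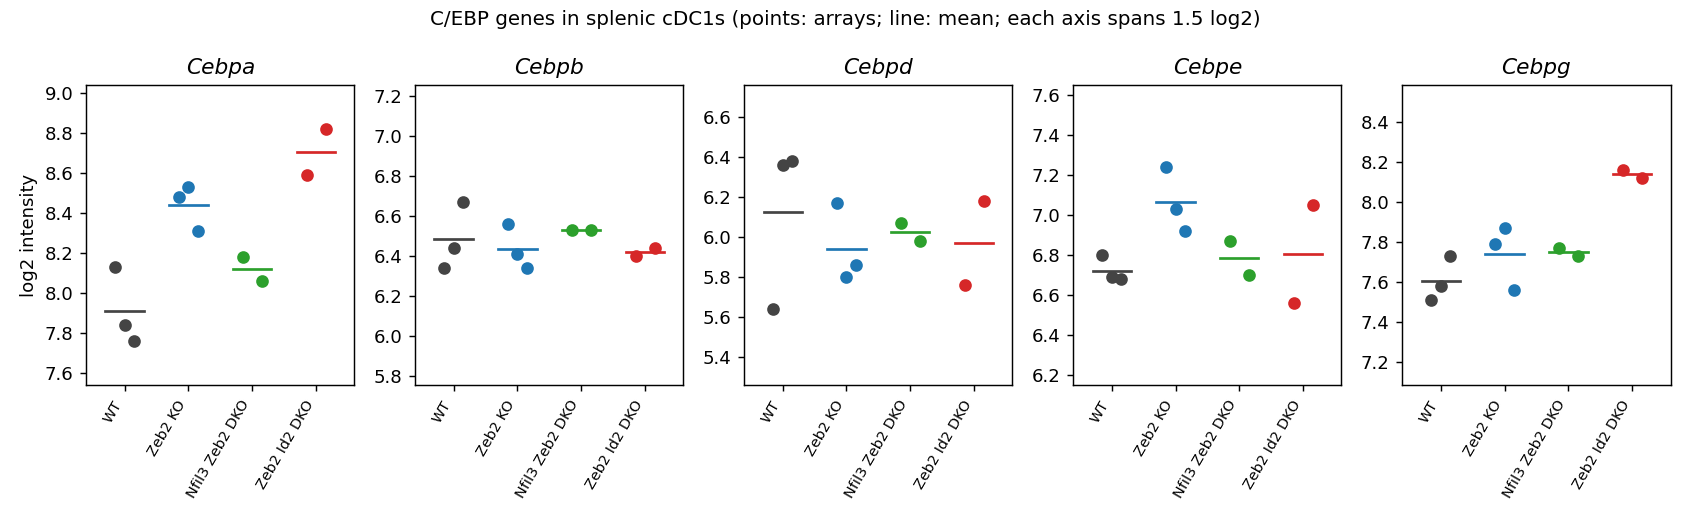
Level of each measured C/EBP gene (log2 intensity, vertical axes, each spanning 1.5 log2) on every array, by genotype; points are arrays and lines are group means. Cebpa and Cebpg stand highest in Zeb2 Id2 DKO, and the groups of Cebpb and Cebpd overlap for nearly all pairs.

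Cebpa, the founding member and a factor that commits progenitors to the granulocyte and monocyte path, read 8.13, 7.84 and 7.76 in WT. It read 8.48, 8.53 and 8.31 in Zeb2 KO, 8.18 and 8.06 in Nfil3 Zeb2 DKO, and 8.59 and 8.82 in Zeb2 Id2 DKO. Both Zeb2 Id2 DKO arrays and all Zeb2 KO arrays lay above every WT array, while the Nfil3 Zeb2 DKO arrays overlapped with WT replicate 1. The rise in Zeb2 Id2 DKO over WT was 1.73-fold (8.70 ± 0.16, SD, n = 2, against 7.91 ± 0.19, n = 3; log2 difference 0.79 [0.52 to 1.07], adjusted p = 0.0128 by limma). With WT replicate 2, WT replicate 3, Zeb2 Id2 DKO replicate 1 or Zeb2 Id2 DKO replicate 2 left out the Cebpa call ended (adjusted p = 0.0546, 0.0561, 0.0536 and 0.18), although the log2 difference stayed between 0.68 and 0.91.

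In Zeb2 KO, Cebpa lay 0.53 above WT on the log2 scale [0.28 to 0.78] without passing (8.44 ± 0.12, n = 3; adjusted p = 0.212 by limma). Without Zeb2 KO replicate 3, the array that stood apart, the difference was 0.59 and passed (adjusted p = 0.0427). In Nfil3 Zeb2 DKO it lay 0.21 above WT [-0.07 to 0.49], at 8.12 ± 0.08 (n = 2; adjusted p = 1.0).

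The order of Cebpa by genotype was therefore WT, Nfil3 Zeb2 DKO, Zeb2 KO and Zeb2 Id2 DKO, from low to high. No neighbouring pair in this order passed: Nfil3 Zeb2 DKO against WT is given above, Nfil3 Zeb2 DKO lay 0.32 below Zeb2 KO (log2 difference -0.32 [-0.60 to -0.04], adjusted p = 0.508), and Zeb2 Id2 DKO lay 0.26 above Zeb2 KO [-0.01 to 0.54] (adjusted p = 0.706, limma). The arrays of Nfil3 Zeb2 DKO and Zeb2 KO did not overlap for Cebpa, nor did those of Zeb2 Id2 DKO and Zeb2 KO. With Zeb2 lost in both, the double mutants differed by 0.59 [0.28 to 0.89] in Cebpa, higher without Id2 than without Nfil3 (adjusted p = 0.0884 by limma). That difference passed without Zeb2 KO replicate 3 (adjusted p = 0.0319), which changes only the spread estimated for all groups.

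Cebpg, the short member that lacks an activation domain and pairs with other C/EBP proteins and with Atf4, read 7.51, 7.58 and 7.73 in WT and 7.79, 7.87 and 7.56 in Zeb2 KO. It read 7.77 and 7.73 in Nfil3 Zeb2 DKO, and 8.16 and 8.12 in Zeb2 Id2 DKO. Both Zeb2 Id2 DKO arrays lay above all 8 others, and the other genotypes lay within a narrow band. The rise of Cebpg over WT was 1.45-fold (8.14 ± 0.03, n = 2, against 7.61 ± 0.11, n = 3; log2 difference 0.53 [0.30 to 0.77], adjusted p = 0.0345 by limma). Leaving out any single array other than one of Zeb2 KO ended the call (adjusted p = 0.0602 to 0.292, log2 difference 0.49 to 0.59) and, at 0.0554, with array medians centred.

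Against the other Zeb2-deleted genotypes Cebpg lay 0.40 [0.17 to 0.63] above Zeb2 KO (adjusted p = 0.205) and 0.39 [0.13 to 0.64] above Nfil3 Zeb2 DKO (adjusted p = 0.182, limma), and neither passed. The second of these passed without Zeb2 KO replicate 3 (adjusted p = 0.0416). Nfil3 Zeb2 DKO and Zeb2 KO differed by 0.01 in Cebpg [-0.22 to 0.24], and lay 0.15 [-0.09 to 0.38] and 0.13 [-0.07 to 0.34] above WT. In its order of levels WT, Zeb2 KO and Nfil3 Zeb2 DKO were thus not told apart.

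**Figure D2:**
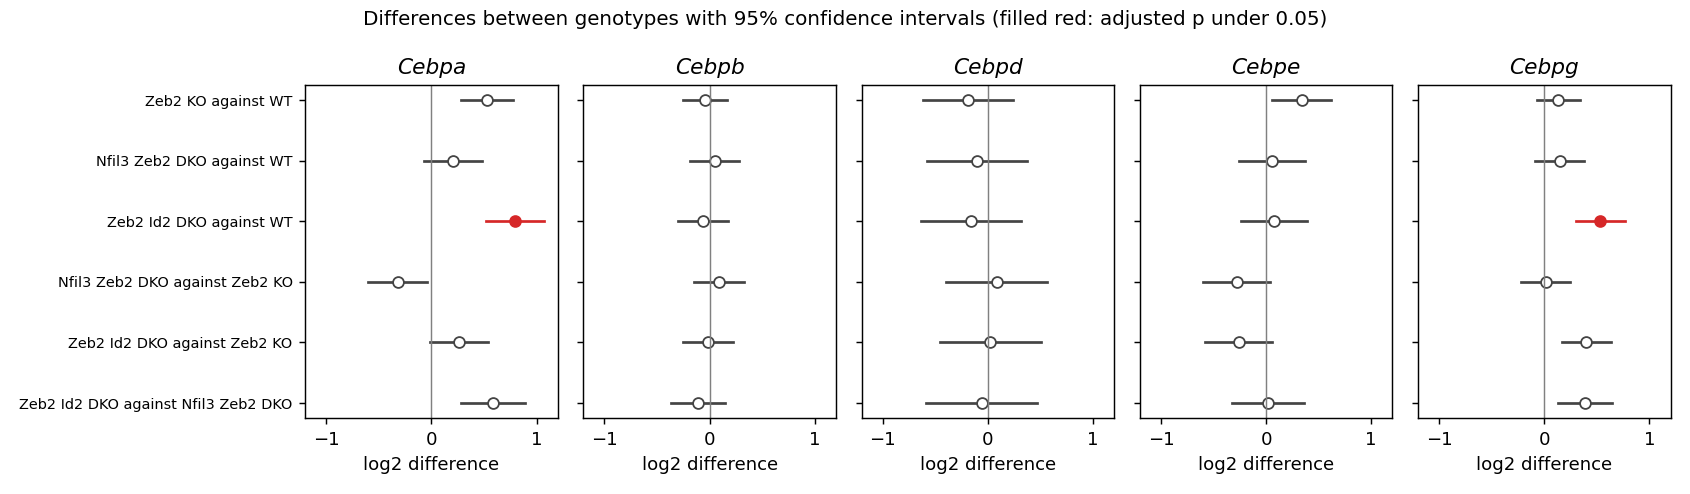
Differences in log2 intensity between genotypes (horizontal axes) for each measured C/EBP gene, with 95% confidence intervals from limma; filled red points had an adjusted p under 0.05. Only the Zeb2 Id2 DKO against WT points of Cebpa (0.79) and Cebpg (0.53) are filled.

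Cebpe, the factor that drives terminal granulocyte maturation and the secondary granule genes, was not called in any pair. It read 6.80, 6.69 and 6.68 in WT, 7.24, 7.03 and 6.92 in Zeb2 KO, 6.87 and 6.70 in Nfil3 Zeb2 DKO, and 6.56 and 7.05 in Zeb2 Id2 DKO. All Zeb2 KO arrays lay above all WT and all Nfil3 Zeb2 DKO arrays, and the Zeb2 Id2 DKO arrays lay on either side of WT. Zeb2 KO had a log2 difference of 0.34 from WT in Cebpe [0.06 to 0.62] (unadjusted p = 0.0229, adjusted p = 0.566, limma). Its differences over the 6 pairs ran from -0.28 to 0.34.

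Cebpb, a factor of emergency granulopoiesis and of macrophage activation, read 6.34, 6.44 and 6.67 in WT, 6.56, 6.41 and 6.34 in Zeb2 KO, 6.53 on both Nfil3 Zeb2 DKO arrays, and 6.40 and 6.44 in Zeb2 Id2 DKO. WT replicate 3 was the highest of all arrays, and WT overlapped with every other group. Its differences over the 6 pairs lay between -0.11 and 0.09, the confidence intervals of Cebpb reached no further than -0.37 and 0.33, and the lowest adjusted p was 0.8.

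Cebpd, an inducible member of the acute phase response, read 5.64, 6.36 and 6.38 in WT, 6.17, 5.80 and 5.86 in Zeb2 KO, 6.07 and 5.98 in Nfil3 Zeb2 DKO, and 5.76 and 6.18 in Zeb2 Id2 DKO. WT replicate 1 was the lowest of all arrays and the other WT arrays were the highest. The intervals of its differences were the widest among the members, reaching -0.64 and 0.56, so that changes of that size in Cebpd could not be told from none.

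Arrays of the groups did not overlap in 2 of 5 members for Zeb2 KO against WT (Cebpa and Cebpe; 10.4% of all genes), 1 for Nfil3 Zeb2 DKO against WT (Cebpg; 23.8%), 2 for Zeb2 Id2 DKO against WT (Cebpa and Cebpg; 31.4%), 2 for Nfil3 Zeb2 DKO against Zeb2 KO (Cebpa and Cebpe; 22.1%), 2 for Zeb2 Id2 DKO against Zeb2 KO (Cebpa and Cebpg; 20.2%) and 3 for Zeb2 Id2 DKO against Nfil3 Zeb2 DKO (Cebpa, Cebpb and Cebpg; 52.4%). With 2 arrays a group such separation is common among all genes, and only the first count has groups of 3 on both sides.

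Cebpa was the only member whose standard deviation over the 10 arrays reached 0.3 log2 (0.34), the level set for a search of genes with a like profile. The 3 genes whose mean-centred profile lay nearest to that of Cebpa were Gpr146, a G protein-coupled receptor gene, Dnajc25, a DnaJ family gene, and Adgrg3, an adhesion receptor gene of granulocytes. Their root mean square differences from Cebpa over the 10 arrays were 0.130, 0.133 and 0.134 log2, against a median of 0.35 over the 17043 genes compared. Gpr146 read 7.08, 7.02 and 6.91 in WT and 7.64 and 7.77 in Zeb2 Id2 DKO. The measure ranks likeness on these arrays and carries no test.

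Granule genes are switched on by C/EBP factors in granulocyte precursors. Of 6 primary granule genes, which mark promyelocytes and depend on Cebpa, 6 were called higher in Zeb2 Id2 DKO against WT. Over all genes 0.878% were called higher there. The median log2 difference of the 6 was 1.67, against -0.01 over all genes. Among them was Mpo, which encodes myeloperoxidase (2.38, adjusted p = 0.0142 by limma). Prtn3, which encodes proteinase 3, read 6.36, 5.98 and 6.53 in WT and 7.65 and 8.46 in Zeb2 Id2 DKO, 1.77 higher on the log2 scale [1.21 to 2.33] (adjusted p = 0.00726 by limma). Prss57, another serine protease gene, read 6.37, 6.31 and 6.44 in WT, 6.90, 6.46 and 6.43 in Zeb2 KO, 6.46 and 6.54 in Nfil3 Zeb2 DKO, and 7.23 and 7.43 in Zeb2 Id2 DKO. It was the 1 primary granule gene also called in Zeb2 Id2 DKO against Zeb2 KO (0.73 [0.44 to 1.03], adjusted p = 0.0488) and against Nfil3 Zeb2 DKO (0.83 [0.50 to 1.15], adjusted p = 0.0333, limma). Of all genes 0.497% and 0.792% were called in those pairs. The Prss57 call against Zeb2 KO ended with only the groups compared in the fit (adjusted p = 0.361), with probe set means (0.0502), repeated quantile normalization (0.0673), array medians centred (0.0953), log2(intensity + 16) (0.0697) or a replicate block (0.162), and with any single array but Zeb2 KO replicate 1 left out (0.0591 to 0.462). Against Nfil3 Zeb2 DKO it ended with a replicate block (0.0585) and with any single array but those of Zeb2 KO left out (0.0506 to 0.297). The count of primary granule genes called in that pair was 6 of 6 with only those groups in the fit, with array weights or without Zeb2 KO replicate 3, and 2 without Zeb2 KO replicate 1. It was 0 with a replicate block and without WT replicate 1 or 3, Nfil3 Zeb2 DKO replicate 1 or either Zeb2 Id2 DKO array. Without Zeb2 Id2 DKO replicate 2 0 of the 6 were called against WT, 2 without replicate 1, and 3 without WT replicate 2 or 3 or with a replicate block. In Zeb2 KO against WT, 0 of the 6 passed (0.0201% of all genes). By limma 5 had an unadjusted p under 0.05 there (7.39% of all genes), with a median of 1.08 and a range of 0.23 to 1.49. In Nfil3 Zeb2 DKO against WT 0 passed at either threshold (0.00502% and 4.16% of all genes), with a median of 0.19.

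Secondary granule genes depend on Cebpe. Ngp, Ltf and Lcn2 were called in Zeb2 Id2 DKO against WT, 3 of 10 genes (median 1.82), where 0.878% of all genes were called higher. At an unadjusted p under 0.05 by limma there were 8 of 10 (10.2% of all genes). Ngp alone was called in Zeb2 KO against WT (median 1.33), where 0.0201% of all genes were called. At an unadjusted p under 0.05 there were 9 of 10 in that pair (7.39% of all genes). Ltf, the iron-binding lactoferrin, read 6.62, 6.93 and 7.0 in WT, 10.39, 8.95 and 9.61 in Zeb2 KO, 7.64 and 8.14 in Nfil3 Zeb2 DKO, and 8.56 and 10.47 in Zeb2 Id2 DKO. Its values in every mutant array lay above every WT array, with a log2 difference of 2.80 [1.80 to 3.79] in Zeb2 KO (adjusted p = 0.117) and 2.66 [1.55 to 3.77] in Zeb2 Id2 DKO (adjusted p = 0.029). Between Zeb2 Id2 DKO and Zeb2 KO the median of the 10 genes was -0.04 and 0 were called by limma (0.497% of all genes). At an unadjusted p under 0.05 there were also 0 (7.35% of all genes). Left-out arrays moved the count against WT between 1 and 6 for Zeb2 Id2 DKO, with 6 without Zeb2 KO replicate 1 or 3, and 1 without Zeb2 Id2 DKO replicate 2 or any single array of WT or of Nfil3 Zeb2 DKO. It was 1 with a replicate block or on the log2(intensity + 16) scale, and 6 with array weights or only the 2 groups compared. For Zeb2 KO against WT it moved between 0 and 4: 0 without WT replicate 2 or 3, Zeb2 KO replicate 1 or 2, or either Nfil3 Zeb2 DKO array, 3 without either Zeb2 Id2 DKO array, and 4 without Zeb2 KO replicate 3. It was 0 with array medians centred or on the log2(intensity + 16) scale, and 3 with array weights.

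**Figure D3:**
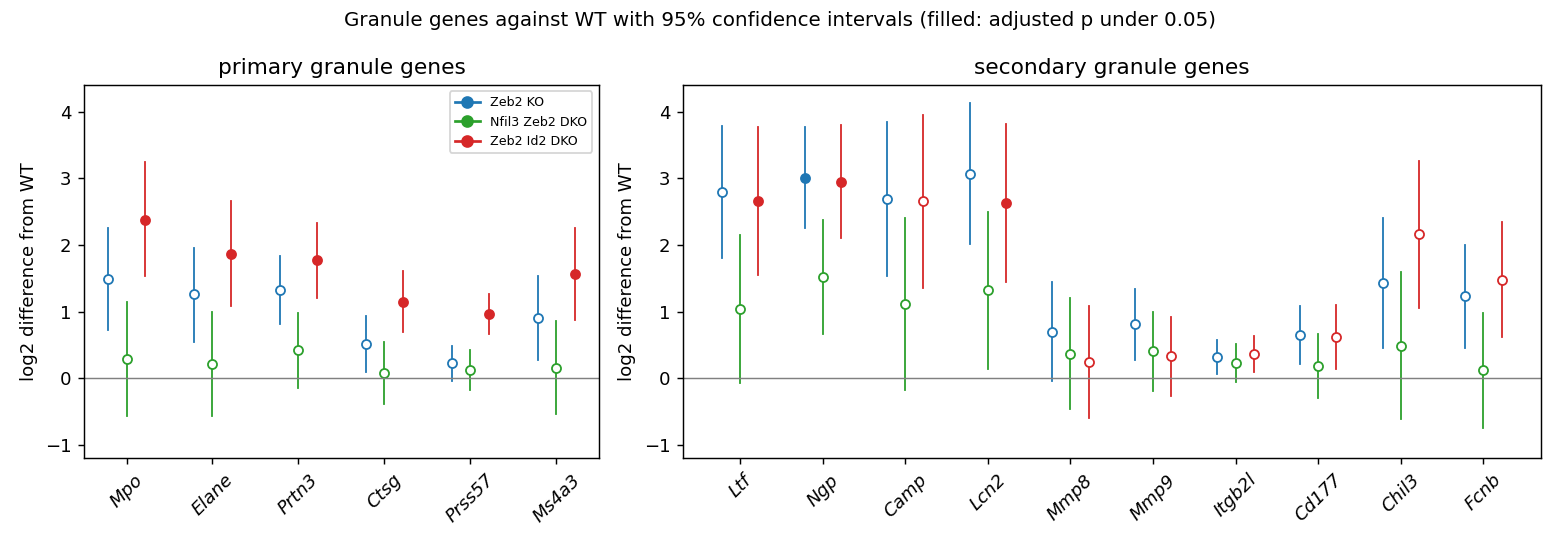
Differences from WT in log2 intensity (vertical axes) of 6 primary and 10 secondary granule genes in the 3 Zeb2-deleted genotypes, with 95% confidence intervals; filled points had an adjusted p under 0.05. All primary granule genes are filled in Zeb2 Id2 DKO, and the largest secondary granule values are near 3 in both Zeb2 KO and Zeb2 Id2 DKO.

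These lists are also the content of neutrophils and their precursors, and 5 of the 10 secondary granule genes are among the 11 neutrophil markers used. The summed intensity of the 11 markers was lowest in WT (1237 to 1528) and then in Nfil3 Zeb2 DKO (2434 to 3826). It was 5948 to 13971 in Zeb2 KO, and 4505 and 12870 in replicates 1 and 2 of Zeb2 Id2 DKO. All 11 markers had positive differences from WT in each mutant genotype. In Zeb2 KO 1 was called (0.0201% of all genes), and 10 had an unadjusted p under 0.05 by limma (7.39%). Without Nfil3 0 were called (0.00502% of all genes), and 3 passed unadjusted (4.16%). In the Zeb2 Id2 DKO arrays 4 were called (1.43% of all genes), and 8 passed unadjusted (10.2%). Ly6g, a marker of mature neutrophils, read 4.96, 4.86 and 4.49 in WT, 5.86, 5.17 and 5.76 in Zeb2 KO, 4.95 and 5.24 in Nfil3 Zeb2 DKO, and 4.98 and 6.09 in Zeb2 Id2 DKO.

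Beside these sums, Cebpe was highest on Zeb2 KO replicate 1 (7.24, sum 13971) and Zeb2 Id2 DKO replicate 2 (7.05, sum 12870), the arrays with the most neutrophil marker signal. On Zeb2 KO replicates 2 and 3, with lower sums than replicate 1, Cebpe read 7.03 and 6.92. Zeb2 Id2 DKO replicate 1 (sum 4505) read 6.56 for Cebpe, below every WT array. Cebpa read 8.59 and 8.82 on Zeb2 Id2 DKO replicates 1 and 2, with sums of 4505 and 12870. On Zeb2 KO replicates 1, 2 and 3 Cebpa read 8.48, 8.53 and 8.31. Cebpg read 8.16 and 8.12 on the same Zeb2 Id2 DKO arrays and 7.79, 7.87 and 7.56 on Zeb2 KO replicates 1, 2 and 3. Without Zeb2 Id2 DKO replicate 2 the log2 difference from WT was 0.55 for Cebpg and 0.68 for Cebpa. The part of neutrophil RNA in the values of Cebpa, Cebpe, Cebpg and the granule genes was not tested.

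**Figure D4:**
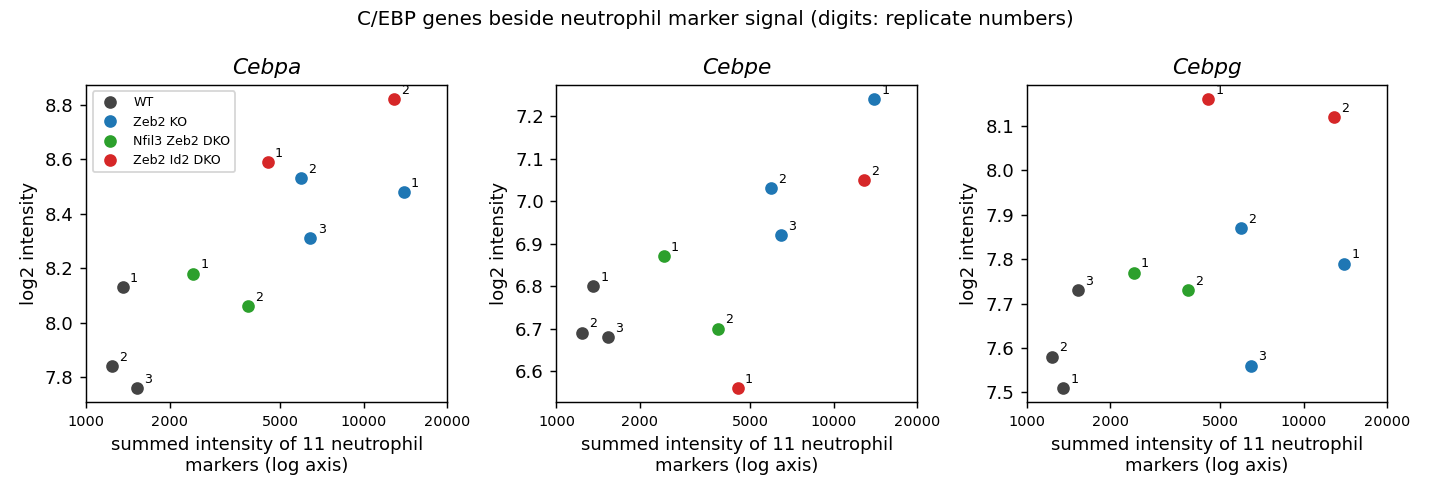
Log2 intensity of Cebpa, Cebpe and Cebpg (vertical axes) against the summed intensity of 11 neutrophil markers on the same array (horizontal log axis); colours are genotypes and digits are replicate numbers. Both Zeb2 Id2 DKO arrays are near 8.1 for Cebpg at sums of 4505 and 12870.

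Other marker sums moved with the Zeb2 Id2 DKO group as well, that of T cells also in Zeb2 KO. The 5 measured erythroid markers summed to 1807 and 2196 there against 589 to 1181 in WT, the 7 pDC markers to 4630 and 4689 against 2727 to 2941, and the 7 monocyte markers to 2776 and 3094 against 1936 to 2158. Members called higher than WT numbered 2 of 5, 2 of 7 and 1 of 7. Over all genes 0.878% were called higher and 1.43% in either direction. Those called were Car2, a carbonic anhydrase gene (log2 difference 1.06, adjusted p = 0.0118), and Hemgn (0.90, adjusted p = 0.0142), then Siglech and Bst2, and Ms4a6c. Differences from WT were positive for 5 of 5 erythroid, 5 of 7 pDC and 5 of 7 monocyte markers. Tcf4 (-0.01) and Spib (-0.17) of the pDC list did not rise, nor did Csf1r (-0.05) and F13a1 (-0.01) of the monocyte list. A summed intensity weighs the brightest marker most, which in the pDC list is Bst2 (log2 mean 10.62 in WT and 11.6 in Zeb2 Id2 DKO). The 6 T cell markers summed to 415 and 435 against 578 to 705, and 3 of 6 were called lower (Cd3d, -0.87; Cd3g, -0.99; Lat, -0.62). Lower sums than WT were also those of 8 red pulp macrophage markers (593 and 676 against 779 to 970), of which Vcam1 was called lower (-1.06, adjusted p = 0.0328, limma). The NK cell sums (248 and 260 against 271 to 333) and B cell sums (534 and 552 against 625 to 1726) were lower too, with 0 markers called. In Zeb2 KO the T cell sums (486 to 528) also lay below every WT array, and Vcam1 differed from WT by -0.85 without being called. The Zeb2 KO sums overlapped with WT for erythroid (1159 to 1530), pDC (2105 to 3081) and monocyte markers (1544 to 2436). They also overlapped for red pulp macrophage (576 to 1073), NK cell (265 to 295) and B cell markers (397 to 910). The part of these cells in the rises of Cebpa and Cebpg was not tested.

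Of 18 bZIP genes that pair or compete with C/EBP factors, 0 were called in Zeb2 KO or Zeb2 Id2 DKO against WT. Of all genes 0.0201% and 1.43% were called in those pairs, so counts of 0 say little about this list. At an unadjusted p under 0.05 limma gave 4 in Zeb2 KO (7.39% of all genes) and 2 in Zeb2 Id2 DKO (10.2%). The deleted Nfil3 was the 1 gene called in each comparison with Nfil3 Zeb2 DKO. In Zeb2 Id2 DKO the largest difference from WT was that of Jun, an AP-1 subunit (-0.81 [-1.37 to -0.25], adjusted p = 0.206). The lowest adjusted p in that pair was that of Fosl2 (-0.72 [-1.07 to -0.38], adjusted p = 0.0526, limma). Fosl2 lay lower than WT by -0.53 [-0.84 to -0.22] in Zeb2 KO and by -0.75 [-1.10 to -0.41] in Nfil3 Zeb2 DKO, without passing. Its mutant arrays all lay below its WT arrays (8.92, 9.56 and 9.46). Nfil3 itself read 10.13, 10.12 and 10.41 in Zeb2 KO and 10.21 and 10.28 in Zeb2 Id2 DKO, within the range of WT (9.98 to 10.77). The partners Atf4 and Ddit3, both of the integrated stress response, had log2 differences in Zeb2 Id2 DKO against WT of -0.01 [-0.31 to 0.30] and -0.25 [-0.78 to 0.28].

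Genes that set the stability and translation of C/EBP proteins were called in no pair. As at most 1.43% of all genes were called in a pair, this says little about the list, of which 9 of 12 were measured. At an unadjusted p under 0.05 limma gave 2 of them in Zeb2 KO against WT (7.39% of all genes). It gave 2 in Zeb2 Id2 DKO (10.2%) and 0 in the mutant of Nfil3 (4.16%). Trib2, which targets C/EBP alpha protein for degradation, read 6.81, 6.19 and 6.51 in WT, 5.94, 6.33 and 5.97 in Zeb2 KO, 6.37 and 6.18 in Nfil3 Zeb2 DKO, and 6.27 and 5.81 in Zeb2 Id2 DKO, with overlap between groups. Its log2 difference from WT was -0.42 [-0.80 to -0.04] in Zeb2 KO and -0.46 [-0.89 to -0.04] in Zeb2 Id2 DKO (adjusted p = 0.613 and 0.426). Cop1, the ubiquitin ligase that works with the Tribbles proteins, had 0.23 [0.01 to 0.46] in Zeb2 Id2 DKO against WT (adjusted p = 0.459).

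Of 16 upstream factors and cytokine receptors, 1 was called, in Zeb2 Id2 DKO against WT, where 1.43% of all genes were called. Il6st, the signalling chain of the IL-6 receptor, which feeds Cebpb and Cebpd through Stat3, fell by 0.51 on the log2 scale in Zeb2 Id2 DKO against WT (10.16 against 10.66; adjusted p = 0.046). It read 10.58, 10.82 and 10.59 in WT and 10.75 and 10.50 in Nfil3 Zeb2 DKO. In Zeb2 KO it read 10.25, 10.30 and 10.18, also below every WT array though not called. The call ended with any array but Zeb2 KO replicate 3 left out, with array medians centred (0.0891) and with a replicate block (0.0829). In Zeb2 KO 0 were called (0.0201% of all genes) and 5 had an unadjusted p under 0.05 by limma (7.39%). The largest difference there was that of Myb, a progenitor factor (-0.54 [-0.79 to -0.29], adjusted p = 0.212). Spi1, which encodes the partner factor PU.1, differed from WT by 0.03 in Zeb2 KO, by -0.09 without Nfil3 and by -0.07 without Id2.

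Inflammatory targets of C/EBP factors include cytokine genes. Of 14 such genes 0 were called higher in any pair. In Zeb2 Id2 DKO against WT 0.878% of all genes were called higher, so a count of 0 says little about this list. Il12b, the shared subunit of IL-12 and IL-23, was called lower in Zeb2 Id2 DKO against WT (-1.06, adjusted p = 0.0112) and against Nfil3 Zeb2 DKO (-0.97, adjusted p = 0.0385, limma). It read 11.05, 11.01 and 11.25 in WT, 9.83, 10.01 and 10.20 in Zeb2 KO, 11.30 and 10.73 in Nfil3 Zeb2 DKO, and 10.08 and 10.01 in Zeb2 Id2 DKO. Zeb2 KO and Zeb2 Id2 DKO thus lay below all WT and Nfil3 Zeb2 DKO arrays, though the Zeb2 KO difference from WT just missed (adjusted p = 0.0508, limma). Without WT replicate 3, Zeb2 Id2 DKO replicate 1 or Zeb2 Id2 DKO replicate 2 the Il12b call against WT ended (adjusted p = 0.0558, 0.0918 and 0.132). The Il12b call against Nfil3 Zeb2 DKO ended with repeated quantile normalization (0.0554), with log2(intensity + 16) (0.0593), and without any 1 WT array, Zeb2 KO replicate 2, Nfil3 Zeb2 DKO replicate 1 or either Zeb2 Id2 DKO array (0.0539 to 0.293). Without Nfil3 Zeb2 DKO replicate 1 the log2 difference was -0.68.

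The Cebpa and Cebpg calls are shown under every setting tried.

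**Figure D5:**
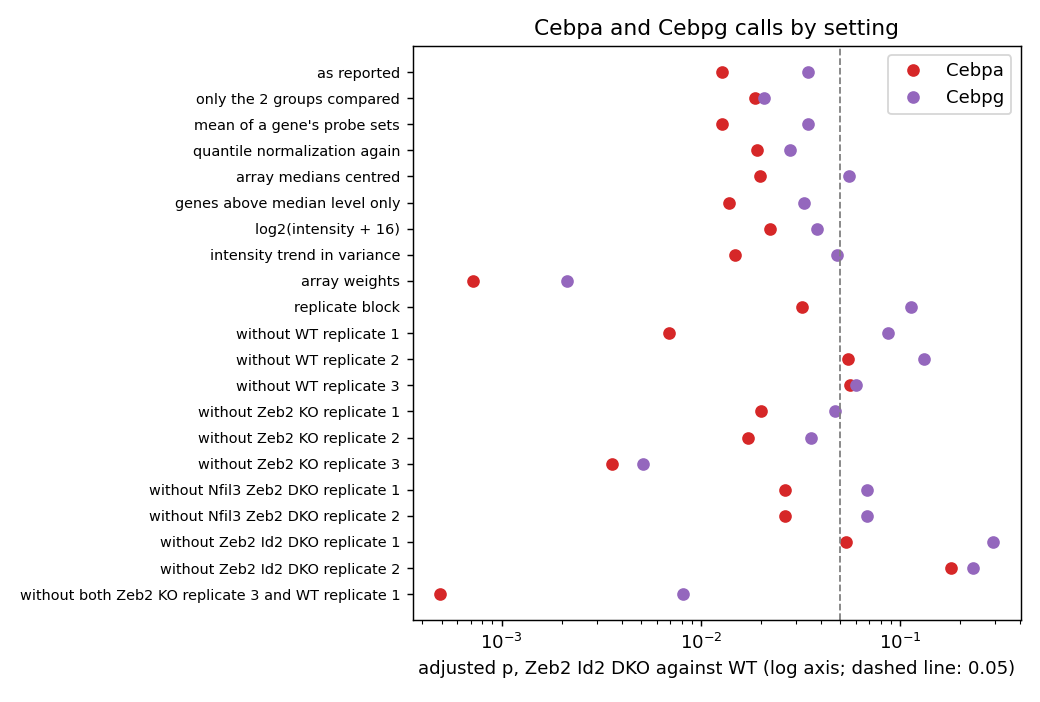
Adjusted p of Cebpa and Cebpg for Zeb2 Id2 DKO against WT (horizontal log axis, dashed line at 0.05) as reported and under 20 other settings (vertical axis). Cebpa stays left of the line in 16 of them and Cebpg in 11.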

How the data were processed

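RNA of splenic cDC1s was labelled with biotin after NuGen Ovation Pico amplification and measured on 10 Affymetrix arrays. Per the submitters' processing notes, the authors ran RMA in Affymetrix Expression Console. The deposited values are intensities on a linear scale (5.05 to 16019), and log2 was taken here. Of 28853 probe sets 21789 named 1 gene, and for 999 genes with several the set with the highest mean was used, which gave 19938 genes. With limma 3.58.1 in R 4.3.3, 1 mean for each genotype was estimated from the 10 arrays together, without covariates, and p-values were adjusted by the Benjamini-Hochberg method over all genes. Brackets hold 95% confidence intervals, whose median half-width was 0.215 to 0.264 log2. The number of arrays limits precision. The test was also run on simulated data with independent normal noise for each gene. Such data lack differences between arrays that many genes share, so the run does not bear on those. The C/EBP genes and the gene lists were chosen with earlier results of these data known. All C/EBP genes were named, with the deleted genes, list members that were called and, where none was, that with the largest difference; other named list members were chosen after their values were seen.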

Additional observations from a re-analysis of the deposited data

How the results depend on the processing

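Each result was recomputed under 20 other settings, of which leaving out Zeb2 KO replicate 3 and WT replicate 1 together was chosen after seeing the data. Of the recomputed differences of C/EBP genes, 564 kept their side of the threshold, 13 lost a call, 11 gained one and none that was called reversed. Most of the 564 were differences not called as reported, which could not lose a call. The 13 all fell on the 2 differences that were called, those of Cebpa and Cebpg in Zeb2 Id2 DKO against WT. Of the other named genes, whose calls alone were followed, 321 recomputed values kept the call and 97 lost it. The number of C/EBP genes called in Zeb2 Id2 DKO against WT, 2 as reported, was 1 with array medians centred, 1 with a replicate block and 0 to 2 with single arrays left out. In Zeb2 Id2 DKO against Nfil3 Zeb2 DKO, 0 as reported, it was 2 with only those groups in the fit, 2 with array weights, 2 without that pair of arrays and 0 to 2 with single arrays left out. In Zeb2 KO against WT, 0 as reported, it was 1 with array weights, 1 without that pair of arrays and 0 to 1 with single arrays left out. The cause was not tested. Samples with the same replicate number did not deviate together (correlations of -0.312 to 0.162 over 13 pairs, 1 above 0.1), so the numbers were not taken as a pairing; the block left Cebpa called (adjusted p = 0.0323) and ended the call of Cebpg (0.114). Cebpb and Cebpd have no value with dim genes filtered out. With 2 arrays in a double mutant group, a left-out array leaves 1, which is assumed to vary like the other groups.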
